A study of Homo sapiens with 5 samples.

Results

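Mitochondrial ribosomal protein genes encode the protein subunits of the mitochondrial ribosome (mitoribosome). They were taken as the rows of the count table whose symbol is MRPL or MRPS followed by a number and, in some, a letter A to C. Of 57221 rows, 78 carried such a symbol, and 75 of them had at least 10 counts in at least 2 of the 5 libraries. These 75 are the members described here. The study measured gene expression by RNA sequencing in NK92MI, an established line of human natural killer (NK) cells with a transferred IL2 gene, which frees it from the need for interleukin 2 in the medium. Cells were treated for 48 h with 10 µM UNC1999, a small molecule inhibitor of the histone H3 lysine 27 methyltransferases EZH2 and EZH1 (3 libraries), or with the solvent DMSO alone (2 libraries). Both groups are the same line in the same medium, and the labels do not say whether libraries came from separate cultures. The p-values therefore reflect the spread between these libraries, which may be technical. Totals of counts assigned to genes were 8644161, 8718661 and 8687863 in the UNC1999 libraries and 8442908 and 8748106 in the DMSO libraries.

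The mitoribosome translates the few messenger RNAs made from mitochondrial DNA, which encode core subunits of the respiratory chain and ATP synthase. Its ribosomal RNAs come from the mitochondrial genome, whereas all of its proteins are encoded in the nucleus, made in the cytosol and imported. Many subunits descend from bacterial ribosomal proteins, and others were added in mitochondria. The genes are expressed in nearly all cells, and their promoters are known to bind general factors such as GABP, NRF1 and YY1.

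Promoters were taken from a RefSeq table (GRCh38.p14) for tested members with a single entry of 300 bases. These were 55 of the 75 members. Left out were MRPL2, MRPL4, MRPL10, MRPL13, MRPL14, MRPL15, MRPL18, MRPL21, MRPL23, MRPL34, MRPL35, MRPL47, MRPL49, MRPS2, MRPS5, MRPS12, MRPS22, MRPS33 and MRPS36, which had no such entry or more than 1, and MRPS28, which was not tested. Symbols with more than 1 entry stayed in the shares of all promoters and of those of tested rows. Windows ran from 250 bases before to 50 bases after the annotated start and were searched on both strands for 4 exact motifs: the palindromic NRF1 consensus, CCGGAAG for ETS factors such as GABP, AAGATGGC for YY1, and the E-box CACGTG. The ETS letters were in 24 of the 55 members (43.6%), against 10.3% of all 35116 promoters in the table and 18.1% of the 12259 that belonged to tested rows. The YY1 letters were in 16 members (29.1%), against 2.89% of all promoters and 5.37% of those of tested rows. These letters contain ATG, and whether they are part of a coding sequence was not examined. The E-box was in 5 members (9.09%), against 7.26% of all promoters and 9.55% of those of tested rows. The NRF1 consensus was in 1 member, MRPL17 (1.82%), against 1.24% of all promoters and 2.12% of those of tested rows. No motif contains another of these motifs.

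The following stretches hold 120 bases before and 30 bases after the start of 5 members, on the gene's own strand, with motif matches in capitals. They were chosen after their values were seen: MRPS27, MRPS23 and MRPS30 were lower with UNC1999 in each fit that was run, MRPS10 was the member called higher, and MRPS18A is a paralogue that holds the same pair of motifs as MRPS10. MRPS27 is at chr5:72320211-72320360 (minus strand), MRPS30 at chr5:44808827-44808976 (plus strand), MRPS23 at chr17:57850015-57850164 (minus strand), MRPS10 at chr6:42217832-42217981 (minus strand) and MRPS18A at chr6:43687762-43687911 (minus strand).
MRPS27: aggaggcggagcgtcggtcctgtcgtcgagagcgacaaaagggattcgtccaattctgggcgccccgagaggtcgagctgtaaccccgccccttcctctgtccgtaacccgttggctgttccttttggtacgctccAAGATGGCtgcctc
MRPS30: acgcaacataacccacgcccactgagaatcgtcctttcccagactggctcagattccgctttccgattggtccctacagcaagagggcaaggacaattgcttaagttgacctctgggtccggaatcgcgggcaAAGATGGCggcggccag
MRPS23: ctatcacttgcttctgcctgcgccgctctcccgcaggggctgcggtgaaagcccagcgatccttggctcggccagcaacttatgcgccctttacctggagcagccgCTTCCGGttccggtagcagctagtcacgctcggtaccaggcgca
MRPS10: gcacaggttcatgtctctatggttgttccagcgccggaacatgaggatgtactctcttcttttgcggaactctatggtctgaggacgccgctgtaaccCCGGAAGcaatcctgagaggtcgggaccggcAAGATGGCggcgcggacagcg
MRPS18A: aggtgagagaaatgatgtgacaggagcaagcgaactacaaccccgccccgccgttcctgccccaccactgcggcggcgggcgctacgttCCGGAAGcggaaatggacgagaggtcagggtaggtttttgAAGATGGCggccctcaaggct
The YY1 letters began at base 17 of the transcript in MRPS27, 14 in MRPS30, 10 in MRPS10 and 10 in MRPS18A, counted from 1 at the annotated start. The ETS letters began 22 bases before the start in MRPS10 and 31 before it in MRPS18A, and their reverse complement began 14 bases before it in MRPS23. The member called higher and members called lower thus held the same YY1 letters in the same part of the promoter. Over the 55 members, the median log2 fold change was -0.22 for the 24 with the ETS letters and -0.13 for the 31 without, and -0.38 for the 16 with the YY1 letters and -0.10 for the 39 without. These are descriptions of letters in a window and were not tested.

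Of the 75 members, 74 passed the filter on low counts and were tested with edgeR's quasi-likelihood test, with Benjamini-Hochberg adjustment over all 13075 tested rows. After UNC1999, 26 of the 74 were lower at an adjusted p under 0.05 (35.1%), where 19.5% of all tested rows were lower. MRPS10 alone was higher (1.35%, against 15.7% of all tested rows), and 47 members were not called. The members' median log2 fold change was -0.15, beside -0.01 over all tested rows, and members ranged from -0.77 (MRPS17) to 0.35 (MRPS10). No called change reached 2-fold, and 4 members were called at least 1.5-fold lower. The shares of all tested rows with changes of these sizes were not counted. The UNC1999 libraries did not overlap the DMSO libraries in 32 members that were lower and in 4 that were higher, where 30.4% of all tested rows did not overlap with UNC1999 lower and 24.2% with UNC1999 higher. Levels are shares of each library's counts, and in bulk RNA fewer cells with an RNA and less of it per cell cannot be told apart. Summed over the 74 members, normalised levels were 4469, 4498 and 4493 CPM (counts scaled to a common library size) in the UNC1999 libraries, against 4973 and 5121 CPM in the DMSO libraries, a difference of -11.1%. In the same scaling, the sum over all tested rows differed by -6.97% and was also below both DMSO libraries in each UNC1999 library.

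**Figure D1:**
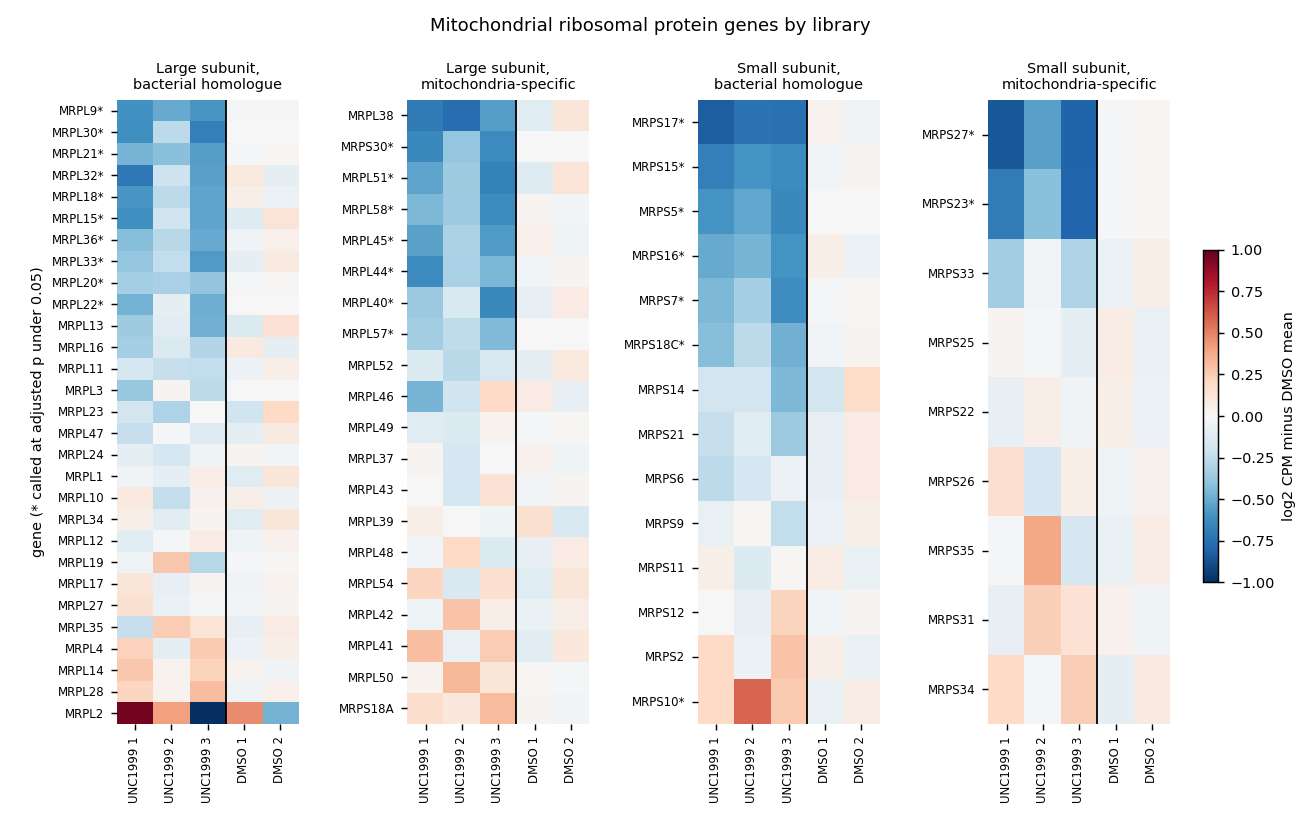
Level of each of 72 tested members in the 5 libraries, as log2 CPM minus the DMSO mean (colour, limited to ±1), with UNC1999 libraries left of DMSO libraries and one panel per class of subunit. MRPL55 and MRPS36 are not drawn, asterisks mark genes with an adjusted p under 0.05, and UNC1999 replicate 2 is paler than replicates 1 and 3 in the called genes at the top of each panel.

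The libraries did not carry equal weight in these calls. Chi-square statistics per degree of freedom were 1.87 between UNC1999 replicates 1 and 3, 8.10 and 9.49 between replicate 2 and these, and 3.30 between the DMSO libraries, so no pair agreed within sampling noise and UNC1999 replicate 2 stood apart. In each of the 26 members called lower, replicate 2 was the highest of the UNC1999 libraries, and over all 74 tested members it was highest in 43. How often it was highest among all rows called lower was not counted. The median log2 difference of the 26 from the DMSO mean was -0.54, -0.33 and -0.58 in UNC1999 replicates 1, 2 and 3. Without UNC1999 replicate 2, 31 of 74 members were lower and 8 higher, where 23.5% and 22.2% of all rows tested in that fit were. Without UNC1999 replicate 1 or 3, 19 and 18 members were lower, beside 15.0% and 15.8% of all rows, and 1 was higher in each case, beside 13.6% and 14.1%. Without DMSO replicate 1 or 2, 16 and 13 of 75 members were lower and 0 higher, beside 10.1% and 12.3% of all rows lower. MRPL30, MRPS5, MRPS15, MRPS16, MRPS23, MRPS27 and MRPS30 were called lower in each of 19 alternative fits. The share of all tested rows that kept a call in each of these fits was not counted.

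The NK identity of the line was visible in all libraries. All 10 NK cell markers on the list were tested, with means from 20.4 (KLRD1) to 1760 CPM (NKG7) in UNC1999 and from 21.2 (KLRD1) to 1790 CPM (GZMB) in DMSO. CD7, a surface marker of NK and T cells, was the one called (without UNC1999 replicate 2, 2 were higher and 1 lower): it was higher, with 106, 69.4 and 91.7 CPM in the UNC1999 libraries and 51.9 and 47.8 CPM in the DMSO libraries. Of 11 markers of other cells, CSF1R and TRAC passed the filter. TRAC, the T cell receptor alpha constant gene, was lower, with 92.9, 84.8 and 82.6 CPM in the UNC1999 libraries against 108 and 116 CPM in the DMSO libraries (adjusted p = 0.00814), and lost its call when UNC1999 replicate 3 or DMSO replicate 2 was left out, with no normalization factors and with GC and length offsets. CD3D, CD3G, MS4A1 and EPCAM had 0 counts in each library. Summed over tested markers, NK cell markers had 6462 to 7368 CPM in UNC1999 and 7057 to 7235 CPM in DMSO, and those of other cells 89.3 to 98.7 CPM in UNC1999 and 112.9 to 121.8 CPM in DMSO. The part of these differences in the members' values was not tested.

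The large subunit holds the peptidyl transferase centre and the exit tunnel. Of its 29 tested proteins with a bacterial homologue, 10 were lower (34.5%), 0 were higher and 19 were not called. Of all tested rows, 19.5% were lower and 15.7% higher. The median log2 fold change of the 29 was -0.18 (-0.074 with no normalization factors). Their summed levels were 1870, 1885 and 1881 CPM in the UNC1999 libraries and 2051 and 2123 CPM in the DMSO libraries, a difference of -9.97% (all tested rows, -6.97%). With no normalization factors, 6 were lower and 1 higher (all rows, 13.3% and 22.6%). Leaving out UNC1999 replicate 1, 2 or 3 gave 8, 13 and 6 lower (all rows, 15.0%, 23.5% and 15.8%). Leaving out UNC1999 replicate 2 gave 3 higher (all rows, 22.2%). Fewer of the 29 were called lower without DMSO replicate 1 or 2, as was so for all rows. Their median log2 fold change was -0.20 and -0.15 in these fits. MRPL9 (bL9m), the counterpart of bacterial L9, had 62.7, 67.4 and 63.7 CPM in the UNC1999 libraries, against 94.6 and 96.1 CPM in the DMSO libraries. The groups did not overlap, and the log2 fold change was -0.56 ± 0.11 (SE, edgeR adjusted p = 0.000111). MRPL21 (bL21m) had 50.8, 52.3 and 47.7 CPM in the UNC1999 libraries and 69.0 and 71.1 CPM in the DMSO libraries, a log2 fold change of -0.48 ± 0.11 (SE; adjusted p = 0.000949). MRPL18 (uL18m), whose bacterial counterpart binds 5S ribosomal RNA, had 105, 131 and 109 CPM in the UNC1999 libraries, against 163 and 151 CPM in the DMSO libraries. Its log2 fold change was -0.45 ± 0.11 (SE, edgeR adjusted p = 0.00179), and the call was lost without DMSO replicate 1 (adjusted p = 0.0677). MRPL21 and MRPL18 did not overlap between the groups either, although UNC1999 replicate 2 of MRPL18 lay nearer to DMSO than the other UNC1999 libraries. MRPL30 (uL30m) was lower by the same measure, with a log2 fold change of -0.51 ± 0.14 (SE).

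Other bacterial-type proteins of the large subunit were called lower or not called. MRPL4 (uL4m), which lines the exit tunnel, had the highest mean CPM of this class, with 246, 196 and 252 CPM in the UNC1999 libraries and 202 and 218 CPM in the DMSO libraries. Its groups overlapped and it was not called (adjusted p = 0.367), but without UNC1999 replicate 2 it was higher (log2 fold change 0.26, adjusted p = 0.00523). MRPL2 (uL2m), which lies next to the peptidyl transferase centre, had 1.92, 1.31 and 0.455 CPM in the UNC1999 libraries and 1.37 and 0.713 CPM in the DMSO libraries, near the limit of 0.327 to 0.372 CPM that a count of 0 allows (3 counts, covering counting error only). The remaining members of the class that were called lower were MRPL15, MRPL20, MRPL22, MRPL32, MRPL33 and MRPL36, with log2 fold changes between -0.47 (MRPL32) and -0.34 (MRPL22). MRPL14 and MRPL28 were at 0.18 and 0.19 on the log2 scale and were not called.

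Of the 20 large subunit proteins that are specific to mitochondria, 7 were lower (35.0%), 0 higher and 13 not called. Of all tested rows, 19.5% were lower and 15.7% higher. The median log2 fold change of the 20 was -0.10. This median was 0.0005 with no normalization factors, where all rows moved to 0.09. In that fit 4 of the 20 were lower and 1 higher (all rows, 13.3% and 22.6%). Leaving out UNC1999 replicate 1 or 3 gave 4 lower in each case (all rows, 15.0% and 15.8%). Leaving out UNC1999 replicate 2 gave 7 lower and 2 higher (all rows, 23.5% and 22.2%). Fewer of the 20 were called lower without DMSO replicate 1 or 2, as was so for all rows. With 1 library left out, the median lay between -0.057 (without UNC1999 replicate 1) and -0.16 (without UNC1999 replicate 3). It was -0.061 with GC and length offsets. Summed levels were 1103, 1076 and 1109 CPM in the UNC1999 libraries and 1186 and 1216 CPM in the DMSO libraries, a difference of -8.74% (all tested rows, -6.97%). MRPS30, which despite its symbol is a large subunit protein (mL65), had 54.7, 65.2 and 55 CPM in the UNC1999 libraries, against 85.8 and 85 CPM in the DMSO libraries. The groups were well apart, and its log2 fold change was -0.55 ± 0.11 (SE, edgeR adjusted p = 0.000228). MRPL51 (mL51) had 58.7, 65.9 and 52.9 CPM in the UNC1999 libraries and 77.2 and 92.4 CPM in the DMSO libraries (log2 fold change -0.52 ± 0.12, SE), and its call was lost without DMSO replicate 2 (adjusted p = 0.0744). MRPL58 (mL62), a peptidyl-tRNA hydrolase that is also a ribosome rescue factor, had 34.4, 36.6 and 30.5 CPM in the UNC1999 libraries, against 48.1 and 46.1 CPM in the DMSO libraries. Its log2 fold change was -0.48 ± 0.12 (SE, edgeR adjusted p = 0.00206).

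MRPL37 (mL37) had the highest level of all members per transcript length, at a mean of 196 CPM per kb over the 5 libraries. It had 300, 263 and 296 CPM in the UNC1999 libraries and 303 and 287 CPM in the DMSO libraries, which overlapped, and it was not called (adjusted p = 0.784). MRPL40, MRPL44, MRPL45 and MRPL57 were the other members of this class called lower, with log2 fold changes between -0.47 (MRPL45) and -0.35 (MRPL57). MRPL44 carries a ribonuclease III-like fold, and MRPL45 faces the inner membrane at the exit of the tunnel. MRPL38 (mL38) had the lowest log2 fold change of the class, -0.67 ± 0.29 (SE), but rested on low levels of 2.15, 2.07 and 2.39 CPM in the UNC1999 libraries and 3.23 and 3.80 CPM in the DMSO libraries. It was not called (adjusted p = 0.0652). MRPL55, a large subunit protein placed in neither class here, had a log2 fold change of -0.01 and was not called.

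**Figure D2:**
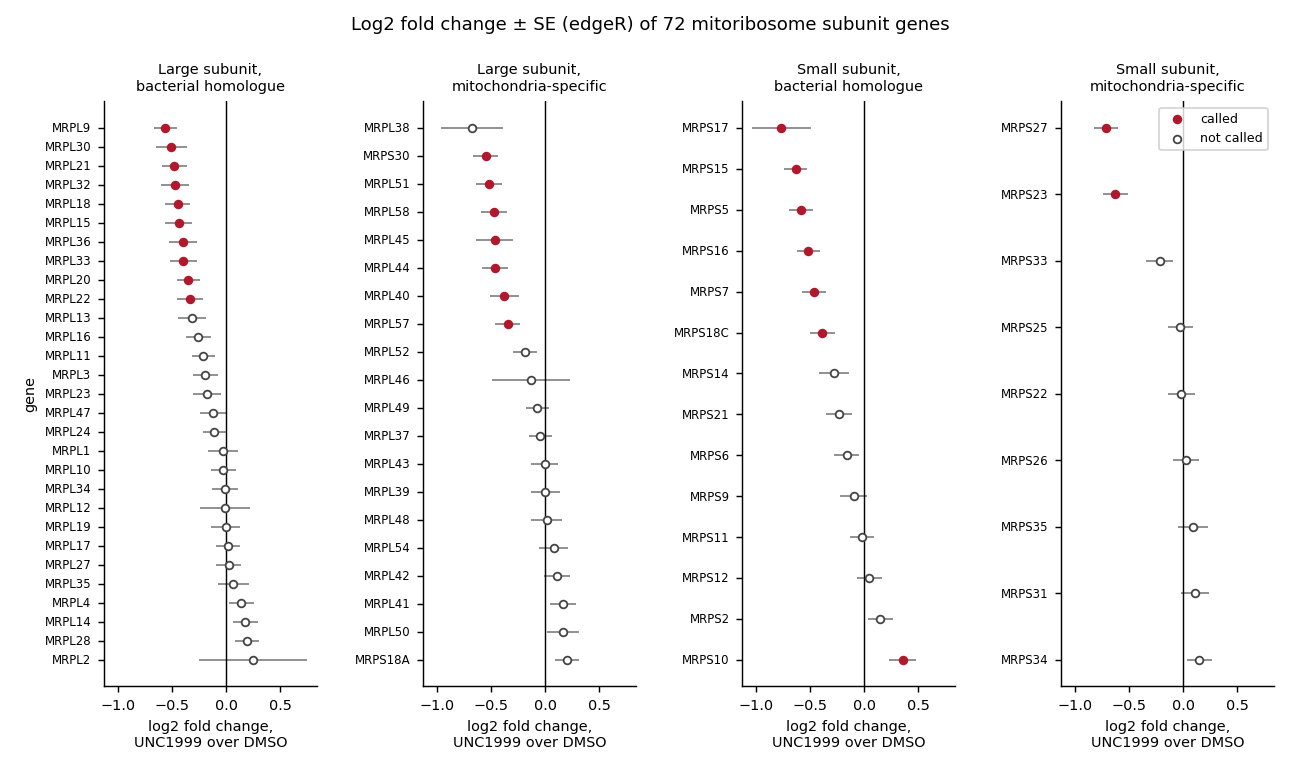
Log2 fold change of UNC1999 over DMSO (points) with its standard error from edgeR (bars) for 72 tested members in the 4 classes of subunit; filled points have an adjusted p under 0.05, and MRPL55 and MRPS36 are not drawn. MRPS10 at 0.35 is the filled point to the right of 0, and the wide bars belong to MRPL2, MRPL38, MRPL46, MRPL12 and MRPS17, which had few counts.

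The small subunit binds the messenger RNA and decodes it. Of its 14 tested proteins with a bacterial homologue, 6 were lower (42.9%), 7 were not called and MRPS10 was higher (7.14%). Of all tested rows, 19.5% were lower and 15.7% higher. The median log2 fold change of the 14 was -0.26. Their summed levels were 922.0, 936.6 and 931.3 CPM in the UNC1999 libraries, against 1086 and 1103 CPM in the DMSO libraries, a difference of -15.0% (all tested rows, -6.97%). With no normalization factors, 4 were lower and 1 higher (all rows, 13.3% and 22.6%). Their median was -0.10 without DMSO replicate 2, -0.15 with no normalization factors and -0.033 with GC and length offsets. Without UNC1999 replicate 2, 7 were lower and 2 higher (all rows, 23.5% and 22.2%). MRPS15 (uS15m), counterpart of a protein that binds the central domain of the bacterial small subunit RNA, had 75.0, 80.2 and 77.8 CPM in the UNC1999 libraries, against 118 and 123 CPM in the DMSO libraries. Its log2 fold change was -0.63 ± 0.11 (SE, edgeR adjusted p = 1.81e-05). MRPS5 (uS5m) had 74.9, 78.4 and 71.8 CPM in the UNC1999 libraries and 112 and 113 CPM in the DMSO libraries, a log2 fold change of -0.58 ± 0.11 (SE; adjusted p = 5.96e-05). MRPS16 (bS16m) had 90.7, 93.2 and 85 CPM in the UNC1999 libraries and 134 and 123 CPM in the DMSO libraries, a log2 fold change of -0.52 ± 0.11 (SE; adjusted p = 0.000282). In these 3 genes each UNC1999 library was below both DMSO libraries, and the UNC1999 libraries differed little among themselves. MRPS7 (uS7m) of the head was also lower, at -0.46 ± 0.11 (SE).

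MRPS17 (uS17m) had the lowest log2 fold change of all members, -0.77 ± 0.27 (SE), on few counts. Its levels were 2.26, 2.40 and 2.39 CPM in the UNC1999 libraries and 4.10 and 3.92 CPM in the DMSO libraries. The adjusted p of 0.0259 was above the threshold when UNC1999 replicate 1 (0.0643), DMSO replicate 1 (0.153) or DMSO replicate 2 (0.105) was left out, and with DESeq2 (0.141). MRPS12 (uS12m) of the decoding centre had the highest mean CPM of the class, with 143, 135 and 167 CPM in the UNC1999 libraries and 140 and 146 CPM in the DMSO libraries. It overlapped between the groups and was not called (adjusted p = 0.78).

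MRPS10 (uS10m) was the member called higher. It had 53.4, 69.8 and 55.8 CPM in the UNC1999 libraries, against 44.2 and 49.1 CPM in the DMSO libraries, a log2 fold change of 0.35 ± 0.12 (SE; adjusted p = 0.0241). The groups did not overlap, and UNC1999 replicate 2 was the highest library. The call was lost without DMSO replicate 1 (adjusted p = 0.271) or DMSO replicate 2 (0.0718), and with offsets for GC content and length (0.1). MRPS28 (bS1m), the member that was not tested, had 13, 5 and 7 counts in the UNC1999 libraries and 7 and 10 counts in the DMSO libraries.

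Of the 9 tested small subunit proteins specific to mitochondria, 2 were lower (22.2%), 0 higher and 7 not called. The share of lower genes was near the 19.5% of all tested rows, of which 15.7% were higher. The median log2 fold change of the 9 was -0.02. This median was 0.09 with no normalization factors, 0.016 without DMSO replicate 1 and 0.0046 without UNC1999 replicate 3, and -0.11 with GC and length offsets. The 2 that were lower had 2 of the lowest adjusted p-values of all members. MRPS27 (mS27), a pentatricopeptide repeat protein, had 68.8, 84.9 and 71.0 CPM in the UNC1999 libraries, against 122 and 125 CPM in the DMSO libraries. Its log2 fold change was -0.72 ± 0.11 (SE, edgeR adjusted p = 5.8e-06), the lowest adjusted p of the members. MRPS23 (mS23) had 70.4, 85.4 and 65.8 CPM in the UNC1999 libraries and 113 and 115 CPM in the DMSO libraries, a log2 fold change of -0.63 ± 0.11 (SE; adjusted p = 4.83e-05). In both genes UNC1999 replicate 2 was the highest UNC1999 library and still below both DMSO libraries. MRPS34 (mS34), which had the highest mean CPM of the class, had 142, 123 and 147 CPM in the UNC1999 libraries and 116 and 132 CPM in the DMSO libraries. It was not called (adjusted p = 0.324), and without UNC1999 replicate 2 it was higher (log2 fold change 0.23, adjusted p = 0.0215). The other 6 lay between -0.22 (MRPS33) and 0.11 (MRPS31).

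MRPS18A, MRPS18B and MRPS18C are paralogues that occupy different places in the mitoribosome: MRPS18A (mL66) is in the large subunit, and MRPS18B (mS40) and MRPS18C (bS18m) are in the small subunit. MRPS18C had 47.4, 53.2 and 45.6 CPM in the UNC1999 libraries, against 62.6 and 65 CPM in the DMSO libraries, and was lower (log2 fold change -0.39 ± 0.11, SE, edgeR adjusted p = 0.00759). That call was lost without DMSO replicate 1 (adjusted p = 0.0536) or 2 (0.0939) and with no normalization factors (0.06). MRPS18A had 82.8, 78.8 and 91.1 CPM in the UNC1999 libraries and 74.6 and 72.1 CPM in the DMSO libraries. Its groups did not overlap, but it was not called (log2 fold change 0.20 ± 0.11, SE, edgeR adjusted p = 0.169). It was called higher without UNC1999 replicate 2 (adjusted p = 0.0171), with no normalization factors (0.0348) and with offsets for GC content and length (0.00201). MRPS18B had 0 counts in every library, and a gene with 0 counts in a library of this depth is under 0.372 CPM as far as reads were assigned to it.

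MRPS36, also called KGD4, carries a mitoribosomal symbol but is a component of the 2-oxoglutarate dehydrogenase complex of the citric acid cycle. It had 13.8, 16.7 and 14.6 CPM in the UNC1999 libraries, against 19.4 and 20.8 CPM in the DMSO libraries. The groups did not overlap, and it was lower (log2 fold change -0.42 ± 0.14, SE, edgeR adjusted p = 0.0202). The call was lost when UNC1999 replicate 1 (adjusted p = 0.104), UNC1999 replicate 3 (0.0561), DMSO replicate 1 (0.0663) or DMSO replicate 2 (0.162) was left out, with no normalization factors (0.0938), with upper-quartile factors (0.0563) and with DESeq2 (0.102).

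The share of members that were lower varied with base composition. The tested protein-coding genes were ranked by the GC content of their transcripts and cut into 10 bins of equal size. Medians were 0.45 (log2 fold change) in the lowest bin, -0.38 in the bin from 48.6% to 52.0%, where 56.2% of genes were lower, and 0.16 in the highest bin. Members were split by rank of GC content. Of the 25 mid-GC members (46.5% to 52.9%), 15 were lower (60.0%), close to the 52.3% of 2178 protein-coding genes in that range. Of the 25 low-GC members (35.0% to 46.4%), 9 were lower (36.0%) and 1 higher (4.0%), whereas of 4166 protein-coding genes in that range 12.8% were lower and 35.0% higher. Of the 24 high-GC members (53.0% to 71.9%), 2 were lower (8.33%), and 12.8% of 3773 protein-coding genes in that range were. The widest gap between members and other genes of like GC content was among the low-GC members; these differences were not tested. The summed level of the low-GC members also varied between UNC1999 libraries, with 902.3, 1102 and 907.4 CPM against 1114 and 1159 CPM in the DMSO libraries. The high-GC members had 2081, 1833 and 2141 CPM in the UNC1999 libraries and 1960 and 2028 CPM in the DMSO libraries. In both sets UNC1999 replicate 2 stood apart from replicates 1 and 3.

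**Figure D3:**
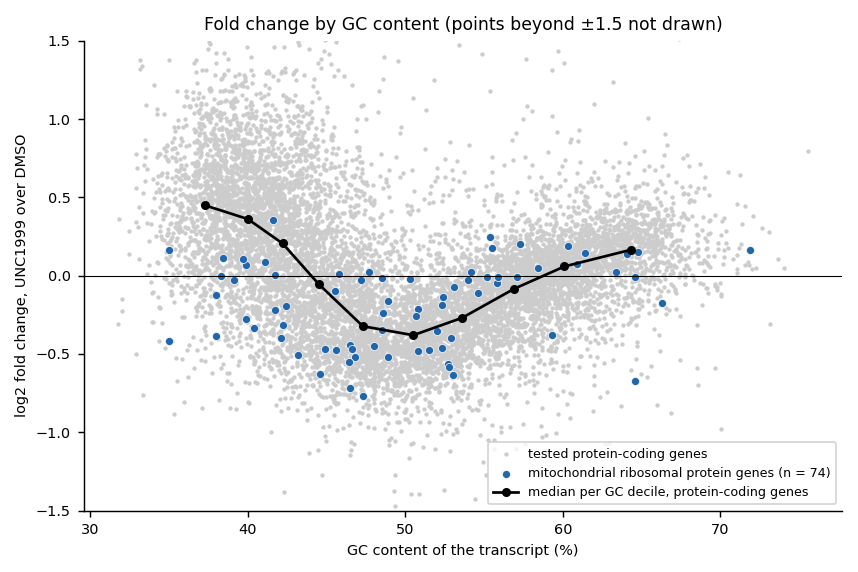
Log2 fold change of UNC1999 over DMSO (vertical axis) against GC content of the transcript (horizontal axis, %) for tested protein-coding genes (grey), the 74 tested members (blue) and the median of each of 10 GC bins of protein-coding genes (black line). The line falls from 0.45 at low GC content to -0.38 near 50.5% and climbs to 0.16, and most members at low GC content lie under it.

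When each library's deviation over GC content and transcript length was taken up by offsets, 26 members were again lower (35.1%, against 18.9% of 11254 annotated rows), and 9 were higher (12.2%, against 15.0%). These were not the same 26. Of the members called lower without offsets, 16 were lower in both fits, 10 were not called with offsets and 0 turned higher. The share of all annotated rows that kept their call was not counted. The 16 were MRPL9, MRPL15, MRPL22, MRPL30, MRPL32, MRPL33, MRPL40, MRPL44, MRPS5, MRPS15, MRPS16, MRPS18C, MRPS23, MRPS27, MRPS30 and MRPS36. Of these, MRPL22, MRPL40 and MRPS36 were called lower in 9, 10 and 12 of the 19 alternative fits. The call of MRPL9 was lost with offsets and the replicate block (edgeR adjusted p = 0.0528). MRPS27 had a log2 fold change of -0.49 ± 0.07 (SE) with offsets, MRPS23 -0.68 ± 0.08, MRPS15 -0.33 ± 0.07, MRPS5 -0.26 ± 0.07, MRPL9 -0.24 ± 0.08 and MRPS30 -0.32 ± 0.08. In MRPS18C and MRPS36, which have a GC content of 38.0% and 35.0%, the difference was larger with offsets, at -0.70 ± 0.08 and -0.73 ± 0.13 (SE). The calls of MRPL18, MRPL20, MRPL21, MRPL36, MRPL45, MRPL51, MRPL57, MRPL58, MRPS7 and MRPS17 were lost, with log2 fold changes between -0.48 (MRPS17) and 0.002 (MRPL57). MRPL36, MRPL45 and MRPL57 were called lower in 10, 9 and 10 of the 19 alternative fits.

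The offsets also added calls. MRPL1, MRPL3, MRPL13, MRPL19, MRPL23, MRPL38, MRPL42, MRPL47, MRPS14 and MRPS33 were lower with offsets only, of which MRPL42 had a log2 fold change of 0.11 without offsets and -0.52 with them. MRPL10, MRPL14, MRPL17, MRPL27, MRPL28, MRPL49, MRPS11, MRPS18A and MRPS22 were higher with offsets only. By GC content, 17 of the 25 low-GC members were lower with offsets and 0 higher. Of the 24 high-GC members, 4 were lower and 6 higher. Protein-coding genes called with offsets in these GC ranges were not counted, so these numbers have no matching background. Median log2 fold changes with offsets were -0.35, -0.099 and 0.11 in the low-GC, mid-GC and high-GC members. Those of the GC bins of protein-coding genes lay between -0.082 and 0.038 in that fit. These differences were not tested. The offsets remove any difference that follows GC content or length over all annotated rows, whatever its source. The values with offsets thus describe members against other genes of like composition. Across the 74 members, the log2 fold changes with and without offsets had a Pearson correlation of 0.631 and a Spearman correlation of 0.592, from the same libraries. Transcript length and mean level showed little relation to the fold change without offsets across members (Pearson r = 0.04 and 0.052). For GC content, Pearson r was 0.194 without offsets and 0.429 with them (Spearman 0.197 and 0.492). Within the members, the fold change thus followed GC content more closely with offsets than without.

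**Figure D4:**
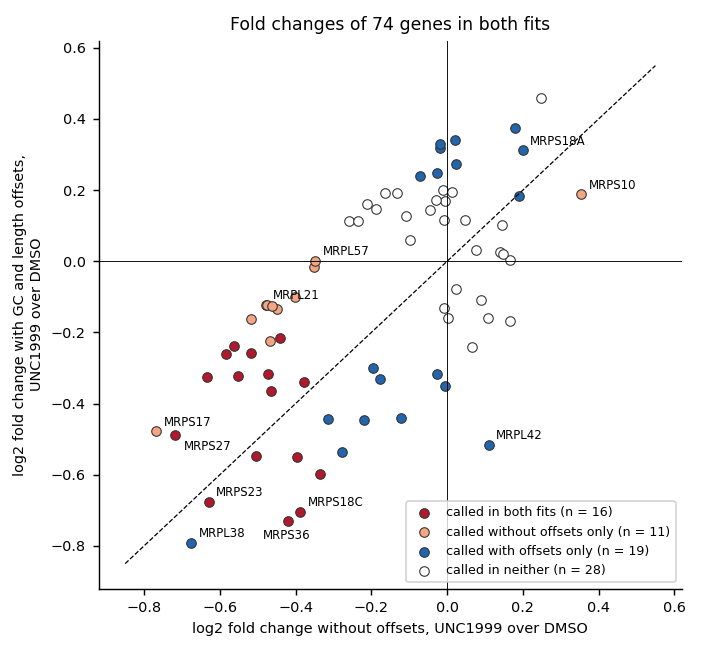
Log2 fold change of UNC1999 over DMSO without offsets (horizontal axis) and with GC and length offsets (vertical axis) for the 74 tested members; colours give the fit or fits in which a gene had an adjusted p under 0.05, and the dashed line marks equal values. The 16 genes called in both fits are all at the lower left, and MRPL42 crosses from 0.11 to -0.52.

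Levels of the members, compared per kb of transcript, spread over a wide range. After MRPL37, the highest means over the 5 libraries were those of MRPL20 (154 CPM per kb), MRPL4 (153), MRPL18 (135) and MRPS34 (129), and the lowest was that of MRPL2 (0.724). Subunits of 1 complex thus differed in RNA level by far more than UNC1999 and DMSO libraries differed in any member. In the GENCODE 29 annotation (GRCh38), 6 of the 78 rows had at least 50% of their transcript inside exons of another gene on the same strand, a limit chosen after the values were seen: MRPL12, MRPL38, MRPL46, MRPL53, MRPS24 and MRPS28. These had 0 to 194 counts per kb over the 5 libraries (median 55.7), and all 6 had fewer than 200 counts. The other 72 rows had a median of 1750 counts per kb, and 3 of them had fewer than 200 counts (MRPL2, MRPS17 and MRPS18B). In MRPS18A and MRPS18C, the overlap of 56.9% and 78.9% was with genes on the opposite strand, RSPH9 and ABRAXAS1, and the counts per kb were 3260 and 1440. No source used here names the authors' annotation or strand setting, so the levels of overlapping genes are uncertain. The 3 rows that did not meet the count rule were MRPL53, MRPS18B and MRPS24. Of 73 rows named as pseudogenes of members, the largest count was 18, in MRPS31P5.

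**Figure D5:**
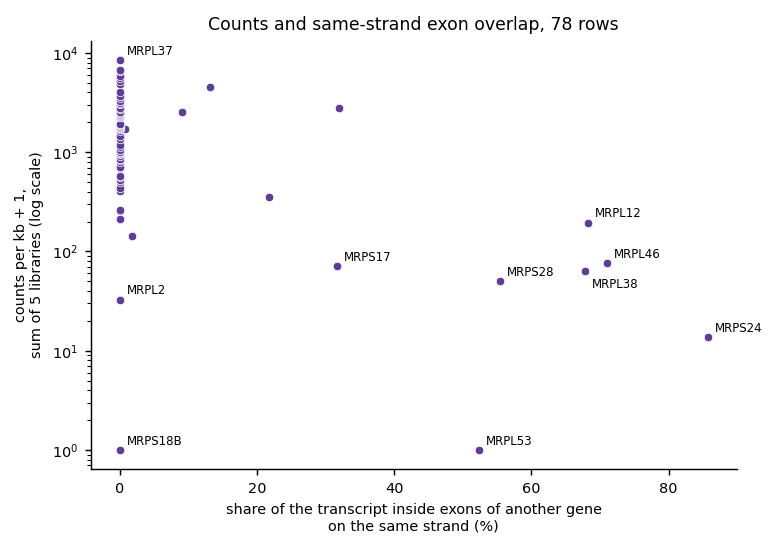
Counts per kb of transcript summed over the 5 libraries, plus 1 and on a log axis, against the share of the transcript inside exons of another gene on the same strand (%), for the 78 rows of the pattern. The 6 rows right of 50% all lie below 200 counts per kb, and MRPL37 is the highest at 8450.

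The partners of these genes in mitochondrial translation showed changes in both directions. Of all tested rows, 19.5% were lower and 15.7% higher, and with offsets 18.9% and 15.0% of annotated rows were. Of 5 mitoribosome proteins with other symbols, DAP3 (mS29), a GTP-binding protein, was lower, with 125, 152 and 126 CPM in the UNC1999 libraries and 186 and 186 CPM in the DMSO libraries (log2 fold change -0.47 ± 0.11, SE). PTCD3 (mS39), a pentatricopeptide repeat protein near the messenger RNA entry, was higher, with 62.4, 70.0 and 59.4 CPM in the UNC1999 libraries and 40.5 and 44.1 CPM in the DMSO libraries (log2 fold change 0.60 ± 0.12, SE). Both calls were also made with offsets (log2 fold changes -0.25 and 0.39), and neither gene overlapped between the groups. Without UNC1999 replicate 2 or DMSO replicate 1, 2 of the 5 were lower. Of 22 tested assembly and ribosomal RNA modification genes, 9 were lower (40.9%) and 4 higher (18.2%), with 4 in each direction with offsets (18.2% each). GTPBP10, a GTPase of large subunit assembly, was higher at 26.2, 26.5 and 19.9 CPM in the UNC1999 libraries, against 10.1 and 11.3 CPM in the DMSO libraries (log2 fold change 1.18 ± 0.16, SE). METTL15, which methylates 12S ribosomal RNA, was higher at 9.37, 7.74 and 7.85 CPM in the UNC1999 libraries, against 4.59 and 3.92 CPM in the DMSO libraries. MTERF4, the partner of the ribosomal RNA methyltransferase NSUN4, and the GTPase NOA1 were lower, with log2 fold changes of -0.57 ± 0.12 and -0.47 ± 0.12 (SE). With offsets, log2 fold changes were 0.68 for GTPBP10, 0.58 for METTL15, -0.31 for MTERF4 and -0.24 for NOA1. Fewer assembly genes were called in each direction without DMSO replicate 1 or 2, as was so for all rows. Their median log2 fold change was -0.18 and -0.24 in these fits.

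Of 16 tested mitochondrial translation factors, 4 were lower and 4 higher (25.0% each, beside 19.5% and 15.7% of all tested rows). C12orf65, a ribosome rescue factor, was lower at 20.9, 25.1 and 22.5 CPM in the UNC1999 libraries, against 41 and 33.4 CPM in the DMSO libraries (log2 fold change -0.70 ± 0.13, SE). OXA1L, which inserts newly made proteins into the inner membrane, was lower (-0.39 ± 0.11) but not called with offsets (adjusted p = 0.809). LRPPRC, which stabilises mitochondrial messenger RNAs, and the recycling factor GFM2 were higher, at 0.47 ± 0.11 and 0.39 ± 0.13 (SE). With offsets, log2 fold changes were -0.34 for C12orf65, 0.22 for LRPPRC and 0.29 for GFM2. Fewer translation factors were called higher without DMSO replicate 1 or 2, as was so for all rows. Their median log2 fold change was 0.04 and 0.12 in these fits. Of 12 tested genes of mitochondrial transcription and genome maintenance, 4 were higher (33.3%) and 1 was lower (8.33%). Among the higher were the polynucleotide phosphorylase PNPT1 (0.62 ± 0.12, and 0.33 with offsets) and the elongation factor TEFM (0.64 ± 0.20, and 0.89 with offsets). The lower gene was the helicase C10orf2 (-0.44 ± 0.11). Here 2 were higher without UNC1999 replicate 1 (all rows, 13.6%), and 3 were lower without UNC1999 replicate 2 (all rows, 23.5%). Fewer of these genes were called higher without DMSO replicate 1 or 2, as was so for all rows. Transcripts of the mitochondrial genome cannot be set beside these values, because all 37 of its rows were at 0 in each library.

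Among 8 tested nuclear regulators of mitochondrial genes, 4 were lower and 1 higher. MYC, a transcription factor that acts on ribosome and mitochondrial genes, was lower, with 79.4, 89.9 and 93.6 CPM in the UNC1999 libraries, against 183 and 176 CPM in the DMSO libraries. Its log2 fold change was -1.03 ± 0.11 (SE, edgeR adjusted p = 7.87e-09), and -0.97 with offsets. NRF1 was lower, with 30.8, 34.0 and 30.5 CPM in the UNC1999 libraries and 51.9 and 46.7 CPM in the DMSO libraries (log2 fold change -0.63 ± 0.12, SE). YY1 was lower, at 125, 140 and 130 CPM in the UNC1999 libraries, against 176 and 181 CPM in the DMSO libraries (edgeR adjusted p = 0.0015). With offsets, log2 fold changes were -0.29 for NRF1 and -0.25 for YY1. Of the subunits of GABP, GABPA was not called without offsets (log2 fold change -0.08) and lower with them (-0.51), and GABPB1 was higher without offsets (0.52 ± 0.14, SE) and not called with them. YY1 and GABPA were named for their motifs, after their values were seen.

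The other large ribosomal family and the products that mitoribosomes work with were set beside the members. Of 77 tested cytosolic ribosomal protein genes, 28 were lower (36.4%) and 1 was higher (1.3%), with a median log2 fold change of -0.15. The members' values in the same fit were 35.1%, 1.35% and -0.15, and those of all tested rows 19.5%, 15.7% and -0.01. RPL9 (-0.63 ± 0.11) and RPL30 (-0.53 ± 0.11) had the smallest adjusted p among the lower genes. With offsets, 18 of the 77 were lower (23.4%) and 22 higher (28.6%), against 26 lower and 9 higher of the 74 members. Of annotated rows, 18.9% were lower and 15.0% higher in that fit. Leaving out UNC1999 replicate 1, 2 or 3 gave 12, 38 and 13 cytosolic genes lower (all rows, 15.0%, 23.5% and 15.8%). With no normalization factors 13 were lower (all rows, 13.3%). Fewer were called lower without DMSO replicate 1 or 2, as was so for all rows. The median of the cytosolic genes was -0.20 and -0.11 in these fits. Without UNC1999 replicate 2, 6 cytosolic genes were higher (7.79%, where 22.2% of all rows were). Of 72 tested nuclear genes for respiratory chain and ATP synthase subunits, 36 were lower and 0 higher, with a median of -0.34. COX7B, a subunit of cytochrome c oxidase, had 35.2, 53.5 and 36.8 CPM in the UNC1999 libraries, against 79.2 and 88.2 CPM in the DMSO libraries (log2 fold change -0.999 ± 0.131, SE). COX6C of the same enzyme had 82.8, 103 and 81.1 CPM in the UNC1999 libraries and 150 and 173 CPM in the DMSO libraries (log2 fold change -0.86 ± 0.12, SE). With offsets, 27 of the 72 were lower and 5 higher. Without UNC1999 replicate 2, 38 were lower and 6 higher (all rows, 23.5% and 22.2%). Fewer of the 72 were called lower without DMSO replicate 2, as was so for all rows, and their median was -0.28. In these 3 lists UNC1999 replicates 1 to 3 summed below both DMSO libraries, as did all tested rows: cytosolic ribosomal protein genes summed to 53420, 52920 and 53110 CPM in the UNC1999 libraries and 57570 and 59910 CPM in the DMSO libraries. Respiratory chain and ATP synthase genes summed to 8052, 8277 and 8059 CPM in the UNC1999 libraries and 9820 and 10200 CPM in the DMSO libraries. The differences between lists were not tested.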

How the data were processed

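The deposited table holds the authors' raw read counts, as whole numbers, for each gene symbol in 5 libraries. Tools named in the submitters' processing notes were HTSeq 0.13.5, STAR 2.7.9, edgeR 3.34.0 and fastp, with the build hg19 and no roles. No source used here gives the annotation, strand setting, RNA selection or handling of multi-mapping reads. Per the labels' protocols, RNA was extracted with Trizol and libraries made with an NEBNext Ultra RNA kit. Columns were matched to samples by name.

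Rows were filtered with filterByExpr and tested with edgeR 4.0.16 (R 4.3.3): TMM factors (1.02, 1.05 and 1.01 in UNC1999, 0.954 and 0.961 in DMSO), estimateDisp, glmQLFit and glmQLFTest, with Benjamini-Hochberg adjustment over 13075 rows and a threshold of 0.05. CPM values are scaled by TMM (prior count 2 on the log2 scale). GC content, length and overlap came from GENCODE 29 (GRCh38), with no conversion of coordinates from hg19. All 74 tested members had a GC content and length. Offsets, on 11254 annotated rows, came from splines over GC content (df 6) and log2 length (df 4), fitted to how far each library departed from the average library. The edgeR test, without offsets and with GC and length offsets, was tried on simulated data, and the other steps were not.

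Alternatives were DESeq2 1.42.0 size factors, no factors, upper-quartile factors, 3 other filters, robust dispersion, a replicate block, each library left out, annotated rows only, offsets with and without the block, pseudogene counts added, the DESeq2 Wald test, limma-voom (limma 3.58.1) and a threshold of 0.01. Members and lists were chosen with earlier results of these data known. Named members were the 3 with the smallest p per direction and the highest mean CPM in each of 4 classes, calls against the common direction, the 3 highest and 3 lowest fold changes, MRPS18A, MRPS18B, MRPS18C and MRPS36. Each companion list gave up to 2 genes per direction. Other members are given in counts, ranges or a value each. Some items are not reported here.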

Additional observations from a re-analysis of the deposited data

How the results depend on the processing

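Against 26 members lower, 1 higher, a median log2 fold change of -0.15 and 4603 genes called, settings moved the values as follows. With no normalization factors, 16 members were lower (21.6%) and 3 higher (4.05%), beside 13.3% and 22.6% of all rows. The median of the members was then -0.046, while the median of all rows was 0.09, against -0.01. The median was -0.079 with upper-quartile factors, -0.12 with the stricter filter, -0.12 with offsets and -0.17 with a replicate block. Offsets gave 9 members higher, where 15.0% of annotated rows were, and the threshold of 0.01 gave 0. Offsets with the replicate block gave 3 higher, a median of -0.072 and 2688 genes called, with 14.1% of annotated rows lower and 9.83% higher. Leaving out 1 library gave 13 to 31 members lower, 0 to 8 higher, medians of -0.20 to -0.11, and 2525 to 5892 genes called; in these fits a group of 1 DMSO library was assumed to vary like the UNC1999 group. With the replicate block alone, 20 members were lower, 1 higher and 4022 genes called, with 16.3% of all rows lower and 14.4% higher. Deviations from the group means had correlations of 0.066 and 0.038 in the 2 pairs of libraries with the same replicate number. The deviations of the 2 DMSO libraries mirror each other, so this check cannot tell whether replicate numbers pair the libraries. No median of the members changed sign in any setting. Of 437 values of 22 named members, 386 kept direction and call, 35 lost a call, 7 gained one and 9, none of them called, changed sign; 6 members changed in no setting, and the causes were not tested. The sign changes were in MRPL37 (log2 fold change 0.058 with no factors, 0.025 with upper-quartile factors, 0.15 with offsets, 0.13 with offsets and the replicate block, and -0.087 to 0.023 when 1 library was left out), MRPS12 (-0.047 with the replicate block, and -0.045 to 0.12 when 1 library was left out) and MRPL2 (-0.21 to 0.77 when 1 library was left out). Few counts limit MRPL2, MRPL12, MRPL38, MRPL46, MRPS17 and MRPS28.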
